A study of Homo sapiens with 72 samples.

Results

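The genes described here are 9 regulators of the germinal centre and of the plasma cell, chosen by name from 20033 protein-coding genes of the GENCODE 44 annotation of hg38. They are BCL6, MEF2B, IRF8, POU2F2, S1PR2, GCSAM, IRF4, PRDM1 and XBP1. Histone marks were measured by Cut&Tag, in which an antibody directs a transposase to a chromatin mark, in 3 human B cell lines with antibodies to H3K4me3, H3K4me2 and H3K27me3. Raji is a Burkitt lymphoma line, a tumour of mature germinal centre type B cells, while REH and NALM6 are precursor B acute lymphoblastic leukemia lines. Each line was left untreated or was exposed to 1 nM bryostatin, an activator of protein kinase C (overnight per the labels), and each of the 18 combinations of line, treatment and mark had 3 libraries, 54 in all. Nothing in the labels says that replicates were separate cultures, so the p-values below measure the spread between these libraries, which may be technical. Each disease is represented by 1 or 2 established lines, and the cells of a line were assayed together, so that fewer cells with a mark and less of the mark per cell cannot be told apart.

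In the germinal centre, B cells that meet antigen divide and mutate their antibody genes. BCL6, a transcriptional repressor, holds this state and keeps the plasma cell programme off. MEF2B activates BCL6, IRF8 and POU2F2 (OCT2) are transcription factors of germinal centre B cells, and S1PR2 and GCSAM restrain the movement of the cells. Leaving it turns on IRF4, then PRDM1 (Blimp-1), a repressor that shuts the B cell programme, and XBP1, which builds the secretory apparatus. Of the marks, H3K4me3 sits at active and poised promoters, H3K4me2 spreads over promoters and enhancers, and H3K27me3 is laid down by Polycomb at repressed genes.

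The promoters of IRF4, BCL6 and MEF2B are shown, the first and last because their canonical starts carried H3K4me3 in some lines and not in others, and BCL6 because its promoter holds the densest run of a searched motif. Each run of 300 bases ends 50 bases into the gene and reads 5′ to 3′ on the strand of the gene, and capitals mark matches to TTCNNNGAA (the core bound by STAT factors) or, in MEF2B, to the octamer ATGCAAAT bound by OCT factors such as POU2F2. They were read from the hg38 genome around the GENCODE canonical start: IRF4 at chr6:391502-391801 (+), BCL6 at chr3:187745419-187745718 (-) and MEF2B at chr19:19170214-19170513 (-).
IRF4: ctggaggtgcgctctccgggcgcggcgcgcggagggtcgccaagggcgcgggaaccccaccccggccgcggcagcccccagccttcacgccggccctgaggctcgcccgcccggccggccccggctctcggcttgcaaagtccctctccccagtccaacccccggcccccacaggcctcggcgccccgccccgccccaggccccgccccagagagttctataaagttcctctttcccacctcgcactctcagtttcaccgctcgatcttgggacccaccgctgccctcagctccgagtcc
BCL6: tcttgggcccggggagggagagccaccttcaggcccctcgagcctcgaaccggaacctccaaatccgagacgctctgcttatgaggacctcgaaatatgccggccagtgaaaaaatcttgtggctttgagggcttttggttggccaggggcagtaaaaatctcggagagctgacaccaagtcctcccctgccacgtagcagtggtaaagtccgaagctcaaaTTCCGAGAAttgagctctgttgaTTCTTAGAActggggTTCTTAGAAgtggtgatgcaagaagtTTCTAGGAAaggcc
MEF2B: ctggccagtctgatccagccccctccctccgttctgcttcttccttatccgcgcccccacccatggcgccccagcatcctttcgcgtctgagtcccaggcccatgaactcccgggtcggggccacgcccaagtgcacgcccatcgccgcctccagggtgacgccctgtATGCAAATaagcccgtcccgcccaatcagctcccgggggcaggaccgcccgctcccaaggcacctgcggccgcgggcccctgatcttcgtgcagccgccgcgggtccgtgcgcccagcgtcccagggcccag

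On both strands of 8 member promoters 5 short motifs were searched: TTCNNNGAA, ATGCAAAT, an IRF element (GAAA and GAAA with 2 free bases between), a composite of ETS and IRF letters (GGAA and GAAA with 2 free bases between) and TGANTCA (AP-1). BCL6 held 4 matches to TTCNNNGAA, beginning 28 and 5 bases before the start and at bases 11 and 37 of the gene. Of 20032 promoters of the same length, 6.49% held at least 1 such match, 0.364% held at least 2 and 4 promoters (0.02%) held at least 4. GCSAM had 1. MEF2B held the octamer 82 bases before its start, and 1.62% of all promoters held it anywhere. None of the 8 held the IRF element, the composite or TGANTCA, which were in 3.28%, 2.58% and 5.44% of promoters. The IRF4 promoter held 32 CpG against a median of 23, and BCL6 held 12. A match describes the letters and was not tested for binding.

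The libraries had between 5.12 and 47.9 megareads mapped, where the signal gave a count (48 of 54), and between 590 and 101702 peaks. The 6 NALM6 replicate 1 libraries, of a different and unstated scaling, gave shorter peaks and no read count. One H3K27me3 library, Raji untreated replicate 2, stood apart: it had a start peak at 57.0% of all genes and at 88.7% of the genes with H3K4me3 in Raji, against 0.404% to 17.1% of such genes in the other H3K27me3 libraries. Of the B lineage markers, H3K4me3 start peaks were in all 6 libraries at 7 of 7 genes in Raji, 5 in REH and 4 in NALM6. The 5 T cell markers had none in any library, and the 4 myeloid markers had none in Raji or NALM6. Of 5 precursor B markers, 1 was marked in all 6 Raji libraries (RAG1), 4 in REH and 3 in NALM6.

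A start peak is one lying within 1 kb of any annotated start of a gene, and a start value is the summed signal of such peaks divided by that of the median gene of the library, so that 1 is the median gene. Where start values of groups are said not to overlap, the share of all genes doing so was not computed. Over gene bodies that share, between untreated Raji and another line, was 11.4% to 30.8% in a given direction for H3K4me3 and H3K4me2. In Raji, 8 of the 9 members had an H3K4me3 start peak in all 6 libraries, all except PRDM1, where 49.4% of all genes did. In REH these were 4 (BCL6, XBP1, MEF2B and S1PR2, where 41.1% of all genes did) and in NALM6 3 (IRF4, XBP1 and MEF2B, where 23.2% did). H3K4me2 was in all 6 libraries at 7 members in Raji, 8 in REH and 5 in NALM6, against 44.2%, 48.9% and 20.6% of all genes.

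**Figure D1:**
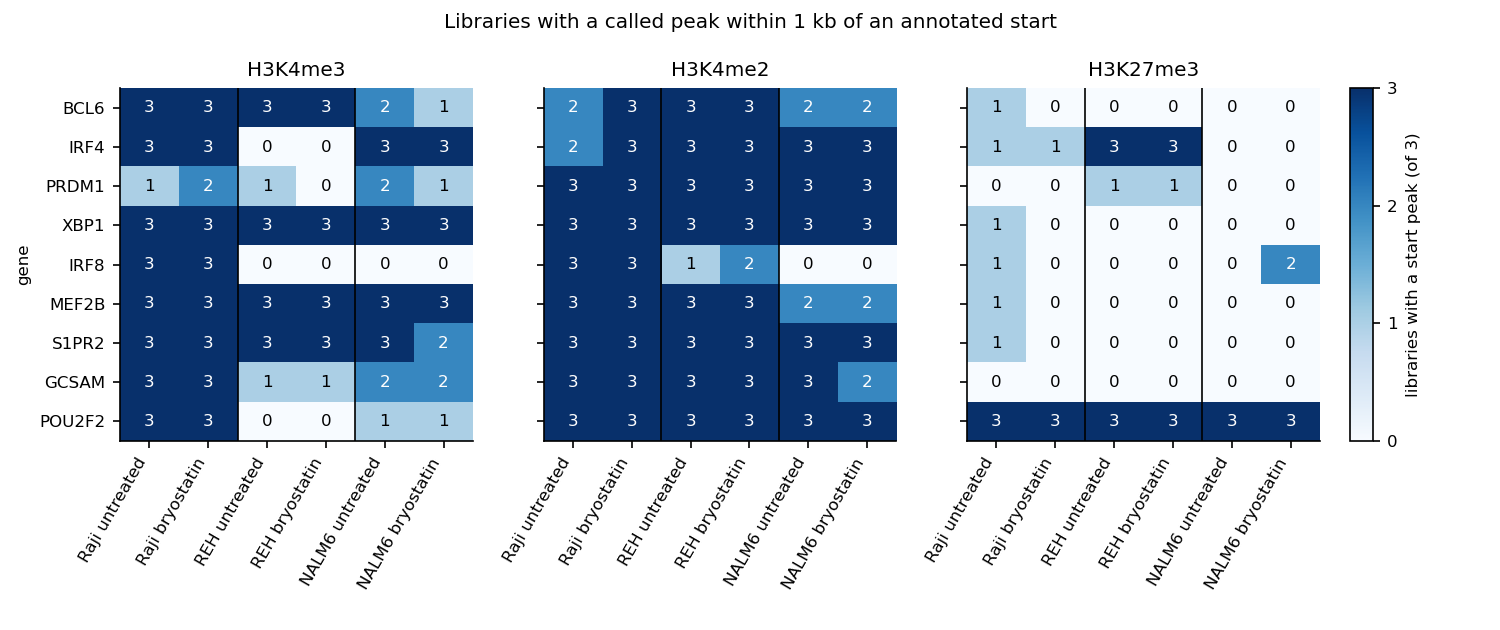
Number of libraries (of 3) with a called peak within 1 kb of a start of each gene, for each mark, line and treatment, with darker cells for higher numbers. IRF8 has H3K4me3 in the Raji columns and in no other, IRF4 has it in Raji and NALM6 while H3K27me3 fills its REH columns, and POU2F2 has H3K27me3 in every library.

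With a start peak called present where 3 of 3 untreated libraries of a line had it and 0 of 3 of the other, IRF4, IRF8 and POU2F2 had H3K4me3 in Raji and not in REH, a difference found at 2.17% of all genes. Against NALM6 only IRF8 had it, where 2.89% of genes did, and IRF8 was also the only member with H3K4me2 in Raji and not in NALM6 (4.49% of genes). No member had an H3K4me3 start peak in all untreated REH or NALM6 libraries and in no Raji one (2.59% and 1.48% of genes). No member met the rule for H3K4me2 between Raji and REH (1.43% of genes only in Raji, 6.6% only in REH), nor for H3K27me3 in either pair (0.439% only in Raji and 1.64% only in REH, then 0.334% only in Raji and 0.165% only in NALM6). Treatment moved no member from 0 of 3 to 3 of 3 libraries or back, for any mark in any line. Over all genes 0.00499% lost H3K4me3 in Raji, 0.0399% gained H3K4me2 in Raji and as many in REH, 0.00998% lost it in REH and 0.389% gained it in NALM6. H3K27me3 was lost at 0.02% in REH and gained at 0.00499% in NALM6.

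IRF8 (ENSG00000140968.12; chr16:85899116-85922606, + strand) drives germinal centre B cell genes together with ETS factors. Its H3K4me3 start values in Raji were 0.899, 0.999 and 0.899 untreated and 0.783, 1.01 and 0.9 with bryostatin. All 12 libraries of REH and NALM6 had none. The same picture of all 6 Raji libraries and no other was found at 217 genes, 1.08% of all. H3K4me2 at its starts was 2.07, 1.19 and 2.74 in untreated Raji and 2.25, 2.28 and 2.28 with bryostatin. In REH 3 of 6 libraries had H3K4me2 (0.185, 0.229 and 0.242), but at starts between 14664 and 14881 bp inside the gene and not at its main start. The H3K4me3 peaks of Raji together ran from -971 to 5768 bp from the canonical start, the one Ensembl marks as representative (negative distances lie upstream). The H3K4me2 region, merged over all lines, ran from -1051 to 12838 bp. It had peaks in every Raji library and in 1 bryostatin REH library. H3K27me3 was found over the starts in 2 bryostatin NALM6 libraries (0.0341 and 0.0307) and in the Raji library that stands apart, and in no REH library.

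POU2F2 (ENSG00000028277.22; chr19:42086110-42196585, - strand) encodes OCT2, which with its coactivator drives antibody genes. H3K4me3 start values were 2.19, 2.77 and 2.7 in untreated Raji and 2.61, 3.17 and 2.69 with bryostatin. No REH library had a peak, and NALM6 had 1 untreated (0.0607) and 1 bryostatin (0.0615) library with a small one, so Raji did not overlap either line. H3K4me2 in contrast was present in all 18 libraries. Its untreated values were 4.22, 4.69 and 6.22 in Raji, 2.26, 2.58 and 2.45 in REH and 1.15, 2.41 and 2.66 in NALM6. Raji was above both lines without overlap, with a log2 difference of 0.97 ± 0.15 (SE, n = 3 against 3) from REH (adjusted p = 0.00106, limma) and of 1.30 ± 0.34 from NALM6 (adjusted p = 0.0432, limma). Neither passed by maximum signal, at 0.24 (adjusted p = 0.328) and 0.32 (adjusted p = 0.501), or by mean signal, at 0.27 (adjusted p = 0.234) and 0.19 (adjusted p = 0.696), all limma. The NALM6 call also ended without NALM6 replicate 2 or any 1 Raji library (adjusted p from 0.0594 to 0.152, limma).

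POU2F2 was also the only member with H3K27me3 at a start in all 18 libraries, from 0.26 to 1.27 times the median gene. Of all 20033 genes, 18 had such a peak in all 18 libraries. The median of these 18 is the unit of the values, so POU2F2 is part of its own scale. In all 6 Raji libraries 249 genes (1.24%) had the mark at a start. H3K27me3 and H3K4me3 lay at different starts of the gene, except in the Raji library that stands apart, where an H3K27me3 peak also covered the canonical start. In every library H3K27me3 lay over the upstream starts at -44879 to -43579 bp from the canonical one, whereas H3K4me3 lay at the canonical start, in 6 of 6 Raji, 0 of 6 REH and 2 of 6 NALM6 libraries. The upstream H3K27me3 peaks, merged over all libraries, made a stretch from -50994 to -5015 bp that single libraries covered in part. H3K27me3 peaks over the gene and flanks summed to 1640 to 35020 bp in Raji, 19750 to 32920 bp in REH and 619 to 35740 bp in NALM6 libraries. At those upstream starts, inside the H3K27me3 stretch, H3K4me2 was found in 6 of 6 Raji, 5 of 6 REH and 0 of 6 NALM6 libraries. The antisense gene POU2F2-AS1 starts 77 bp from a start of POU2F2, and the assay does not tell the strands apart.

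**Figure D2:**
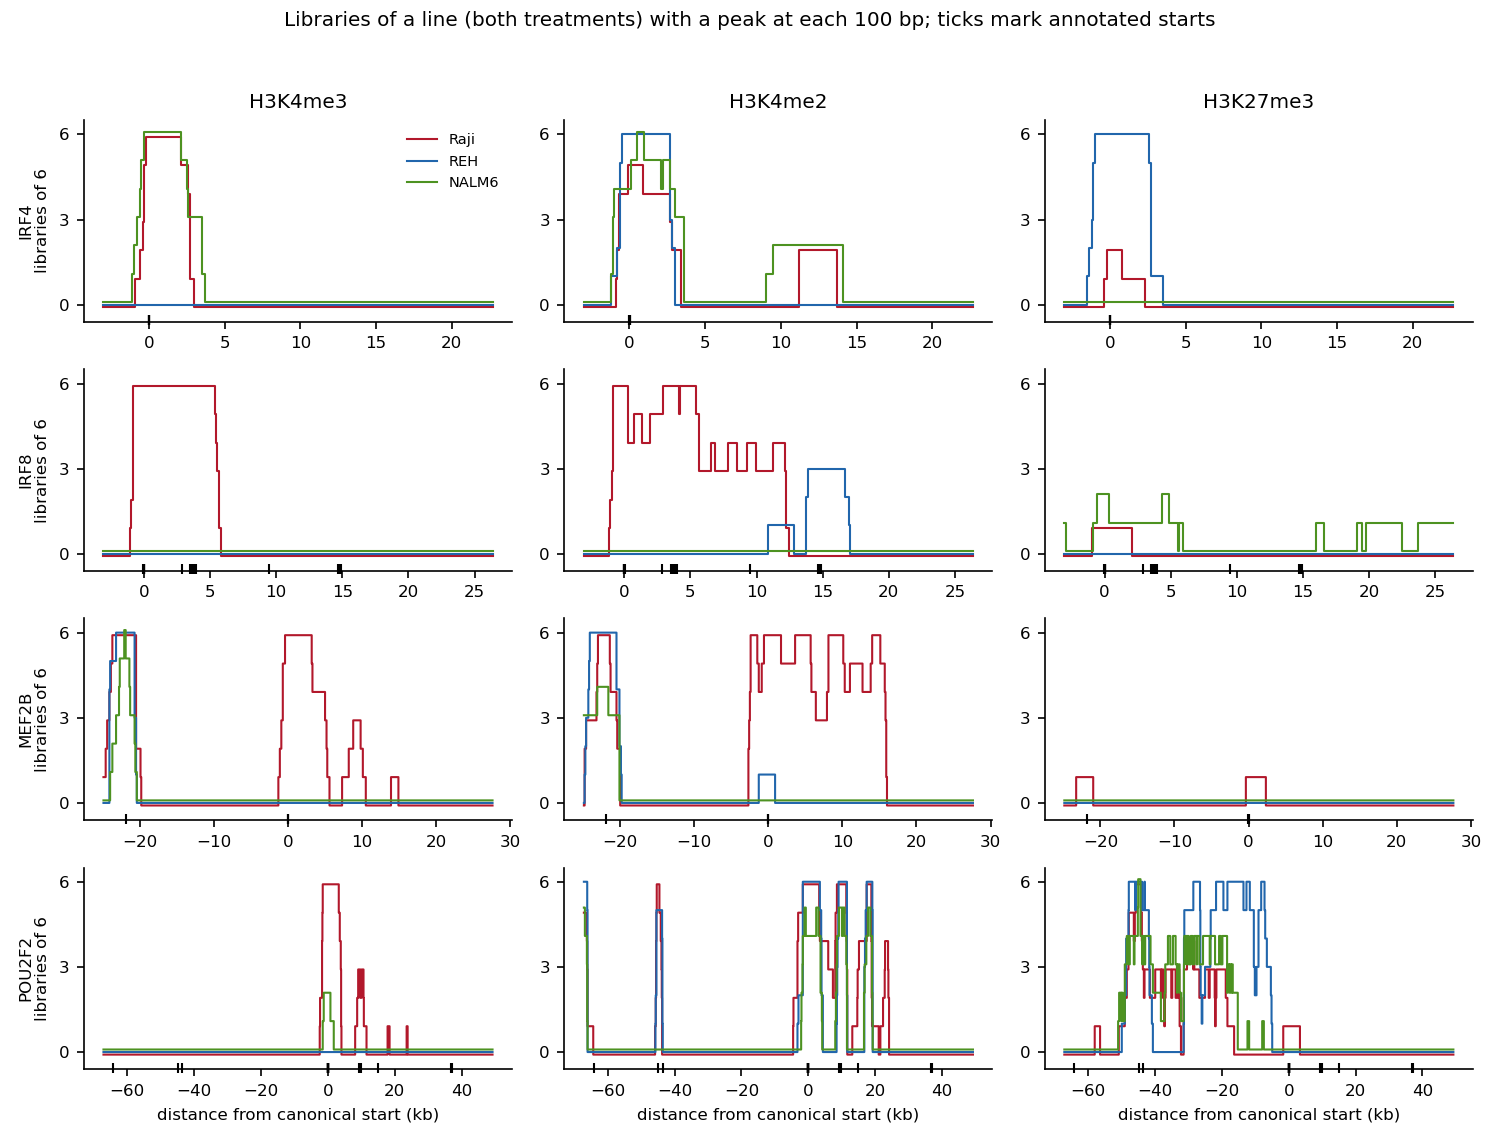
Number of libraries of each line (6, both treatments together) with a peak over each 100 bp of IRF4, IRF8, MEF2B and POU2F2, against the distance from the canonical start in kb; ticks mark annotated starts, and the lines are shifted slightly apart so that all can be seen. At IRF4 the REH H3K27me3 peak covers the stretch where Raji and NALM6 have H3K4me3. At POU2F2 the H3K27me3 stretch of all lines lies upstream of the H3K4me3 peak of Raji, with 1 Raji library also at the canonical start, and at MEF2B the peak at the canonical start is in Raji, while all lines have the upstream one.

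BCL6 (ENSG00000113916.18; chr3:187721377-187745725, - strand) had H3K4me3 in all Raji and REH libraries. Untreated start values were 0.739, 0.785 and 0.775 in Raji and 1.02, 0.891 and 0.473 in REH. The lines overlapped, with a log2 difference of 0.03 ± 0.23 (SE, n = 3 against 3; adjusted p = 0.920, limma). This depended on REH replicate 3, without which BCL6 was lower in Raji by a log2 difference of -0.28 (adjusted p = 0.0369, limma). In NALM6 the values were 0, 0.347 and 0.362 untreated and 0, 0.367 and 0 with bryostatin, all below Raji and REH. The values of 0 were those of replicate 1, of the other scaling, and of bryostatin replicate 3. The latter had 5.41 megareads and 4389 peaks, the fewest of this mark, and the part of depth was not tested. H3K4me2 in NALM6 did not follow H3K4me3. The 4 NALM6 libraries of replicates 2 and 3 held 1.94, 2.08, 2.04 and 2.19, above the other lines, and the 2 of replicate 1 held none. Untreated Raji gave 0.339, 0 and 1.05 and untreated REH 1.59, 1.29 and 1.48, without overlap. Limma did not test this difference, since a Raji library had no peak. The Raji library at 0 was replicate 2, the shallowest, with 6.70 megareads and 10464 peaks. Untreated REH H3K4me2 libraries had 13.7 to 18.8 megareads, and the part of depth was not tested. Long noncoding RNAs start 34 and 531 bp from a BCL6 start, and the marks cannot be assigned between them.

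MEF2B (ENSG00000213999.17; chr19:19145567-19192131, - strand) has a canonical start and another at -21868 bp from it, which lies 8 bp from a start of BORCS8, 3 bp from one of the readthrough BORCS8-MEF2B and 98 bp from one of RFXANK. Summed over both, H3K4me3 was 1.69, 1.81 and 1.73 in untreated Raji, 0.819, 0.863 and 0.676 in REH and 0.288, 0.778 and 0.646 in NALM6. Raji lay above both without overlap. At the canonical start alone H3K4me3 was in 6 of 6 Raji libraries and in 0 of 12 others, and H3K4me2 in 6 of 6 Raji, 1 of 6 REH and 0 of 6 NALM6. The share of all genes with such a picture at the canonical start was not computed. With any start counted it was 1.08% for H3K4me3, and MEF2B was not among those genes. At the upstream, shared start all 18 libraries had H3K4me3, with means of 0.796 in untreated Raji, 0.786 in REH and 0.571 in NALM6.

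The summed H3K4me3 of MEF2B was higher in Raji by a log2 difference of 1.17 ± 0.09 from REH (adjusted p = 2.0e-05, limma) and 1.68 ± 0.33 from NALM6 (adjusted p = 0.0136, limma, n = 3 in each group). The NALM6 difference missed the threshold without any 1 of the Raji libraries, with adjusted p from 0.0565 to 0.0678. H3K4me2 start values were 1.52, 1.29 and 4.52 in untreated Raji and 0.563, 0.646 and 0.551 in REH, a log2 difference of 1.75 ± 0.38 (adjusted p = 0.00624, limma). The H3K4me2 region, merged over all lines, reached from -2627 to 15972 bp from the canonical start, with peaks in every Raji library and in 1 bryostatin REH library. H3K4me3 peaks of both starts together covered 8967 ± 2008 bp (SD, n = 3) in untreated Raji and 3127 ± 597 bp in REH. By the maximum signal over both starts, which the shared start can set, the log2 difference was -0.01 (adjusted p = 0.967, limma).

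S1PR2 (ENSG00000267534.4; chr19:10221433-10231331, - strand) encodes a receptor for sphingosine 1-phosphate that confines B cells to the germinal centre. Its H3K4me3 start values were 0.933, 1.06 and 1.12 in untreated Raji, 0.403, 0.419 and 0.403 in REH and 0.264, 0.182 and 0.205 in NALM6. The 3 lines did not overlap, in the order Raji, REH, NALM6. Raji was higher than REH by a log2 difference of 1.36 ± 0.09 (adjusted p = 8.42e-06, limma) and than NALM6 by 2.22 ± 0.20 (adjusted p = 0.00074, limma; n = 3 in each group). By maximum signal both held, at 0.62 (adjusted p = 0.0187, limma) and 1.19 (adjusted p = 0.0220, limma). By mean signal per base neither passed, at 0.31 (adjusted p = 0.272) and 0.92 (adjusted p = 0.0600), both limma. The single start of S1PR2 is 45 bp from one of DNMT1, the maintenance DNA methyltransferase, so this signal may belong to either gene.

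For H3K4me2 at S1PR2 the direction turned with the measure. Start values were 0.814, 0.89 and 1.19 in untreated Raji and 0.705, 0.701 and 0.72 in REH, a log2 difference of 0.36 ± 0.15 that missed the threshold (adjusted p = 0.0808, limma) and passed it without Raji replicate 1 (0.46, adjusted p = 0.0397). The peaks were longer in Raji, 3580, 3430 and 6830 bp against 2640, 3150 and 1870 bp, and lower, with a mean signal per base of 188 ± 11.3 (SD, n = 3) against 320 ± 81.8. By maximum signal Raji was below REH, at -0.93 (adjusted p = 0.000886, limma), and by mean signal at -0.89 (adjusted p = 0.00331, limma). Against NALM6 the summed value was higher in Raji by 0.92 ± 0.25 (adjusted p = 0.0485, limma). This too turned, to -0.50 by maximum signal (adjusted p = 0.288, limma) and -0.26 by mean signal (adjusted p = 0.606, limma), and the call ended without any 1 library other than NALM6 replicate 1 (adjusted p from 0.0710 to 0.153, limma).

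GCSAM (ENSG00000174500.13; chr3:112120839-112133270, - strand) encodes HGAL, a germinal centre protein that limits cell migration. H3K4me3 was low: 0.231, 0.375 and 0.175 in untreated Raji, 0.0458, 0 and 0 in REH and 0, 0.159 and 0.19 in NALM6. Raji lay above REH and overlapped NALM6. All 18 libraries lacked H3K27me3 at its start. H3K4me2 was 0.68, 0.616 and 1.37 in untreated Raji, 0.367, 0.365 and 0.331 in REH and 0.359, 0.376 and 0.343 in NALM6, without overlap. The log2 differences were 1.16 ± 0.26 from REH (adjusted p = 0.00647, limma) and 1.16 ± 0.30 from NALM6 (adjusted p = 0.0418, limma). By maximum signal they were -0.15 and 0.11 and neither passed (adjusted p = 0.548 and 0.849, limma). The NALM6 call also ended without NALM6 replicate 2 or 3 or Raji replicate 1 (adjusted p from 0.0900 to 0.105, limma). The long noncoding RNA TBILA starts 153 bp from a GCSAM start.

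IRF4 (ENSG00000137265.16; chr6:391739-411443, + strand), which at high dose turns a B cell towards the plasma cell, gave 3 different pictures in the 3 lines. H3K4me3 start values were 0.127, 0.233 and 0.172 in untreated Raji and 2.34, 2.61 and 2.54 in NALM6, and no REH library had a peak. With bryostatin they were 0.0795, 0.207 and 0.222 in Raji and 2.76, 2.57 and 2.87 in NALM6. Raji minus NALM6 was a log2 difference of -3.91 ± 0.22 (adjusted p = 0.000165, limma; n = 3 in each group). Maximum and mean signal gave -3.42 and -3.13 (adjusted p = 0.000402 and 0.000265, limma), so that this was the only tested member difference between lines past the threshold by all 3 measures. H3K4me3 in all Raji and all NALM6 libraries and in no REH library was found at 22 genes, 0.11% of all.

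H3K4me2 at the IRF4 start was in every REH and NALM6 library. Untreated values were 0.154, 0 and 0.424 in Raji, 0.709, 0.727 and 0.708 in REH and 1.18, 1.29 and 1.51 in NALM6. The lines did not overlap, in the order NALM6, REH, Raji. The share of all genes for this was not computed, and limma did not test it, since replicate 2 of untreated Raji had no peak. Over bodies, 28.6% of genes were higher in REH than in Raji without overlap. Read depth also differed, at 6.70 to 13.9 megareads in these Raji libraries and 13.7 to 18.8 in those of REH. The part of depth was not tested. H3K27me3 was in all 6 REH libraries, at 0.393, 0.481 and 0.832 untreated and 0.691, 0.667 and 0.73 with bryostatin, and in no NALM6 library. The Raji libraries had 2 small peaks, 0.0741 in the untreated library that stands apart and 0.0115 in 1 with bryostatin. In REH the start thus carried H3K4me2 and H3K27me3 without H3K4me3, over the same place. Merged over all lines, H3K27me3 spanned -1451 to 3418 bp from the canonical start and H3K4me2 -1201 to 3498 bp. The combination in all 6 REH libraries was found at 100 genes (0.499%), POU2F2 among them, where H3K4me2 lay inside the H3K27me3 stretch in 5 of 6 REH libraries.

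PRDM1 (ENSG00000057657.17; chr6:105993463-106109939, + strand) had H3K4me3 in few libraries. Untreated start values were 0.0648, 0 and 0 in Raji, 0.136, 0 and 0 in REH and 0, 0.133 and 0.187 in NALM6, all overlapping. H3K4me2 was present in all 18 libraries, from 0.291 to 1.1, with 0.613, 0.503 and 0.567 in untreated Raji and 0.739, 0.291 and 0.526 in REH. The log2 difference of 0.14 ± 0.28 did not pass (adjusted p = 0.724, limma). By maximum signal Raji was higher by 1.04 (adjusted p = 0.000233, limma) and by mean signal by 0.86 (adjusted p = 0.0313, limma).

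H3K4me2 lay at different starts of PRDM1 in the 3 lines. At the canonical start, in a cluster reaching 2018 bp into the gene, it was in 6 of 6 Raji, 2 of 6 REH and 4 of 6 NALM6 libraries. At the start at -92873 bp it was in 0 of 6 Raji, 6 of 6 REH and 4 of 6 NALM6. At the one at 12270 bp it was in 5 of 6 Raji and in no other library. In REH 2 libraries had a small H3K27me3 start peak (0.0345 and 0.0614) and no Raji or NALM6 library had one.

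XBP1 (ENSG00000100219.17; chr22:28794555-28800597, - strand) was marked by H3K4me3 and H3K4me2 in all 18 libraries. Untreated H3K4me3 was 1.79, 1.26 and 1.41 in Raji, 1.5, 1.41 and 1.6 in REH and 2.85, 1.89 and 1.83 in NALM6. Raji and REH overlapped (log2 difference -0.02 ± 0.15, adjusted p = 0.936, limma). NALM6 lay above Raji without passing the test (-0.60 ± 0.26 for Raji minus NALM6, adjusted p = 0.164, limma). H3K4me2 was 0.493, 0.54 and 0.597 in untreated Raji and 0.853, 0.918 and 0.746 in REH, lower in Raji by -0.70 ± 0.13 (adjusted p = 0.00254, limma). By maximum signal this was -0.13 (adjusted p = 0.563, limma), and the mean signal per base gave 0.35 (adjusted p = 0.178, limma). Read depth differed between these libraries as given for IRF4, and its part was not tested. A long noncoding RNA starts 86 bp from an XBP1 start.

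**Figure D3:**
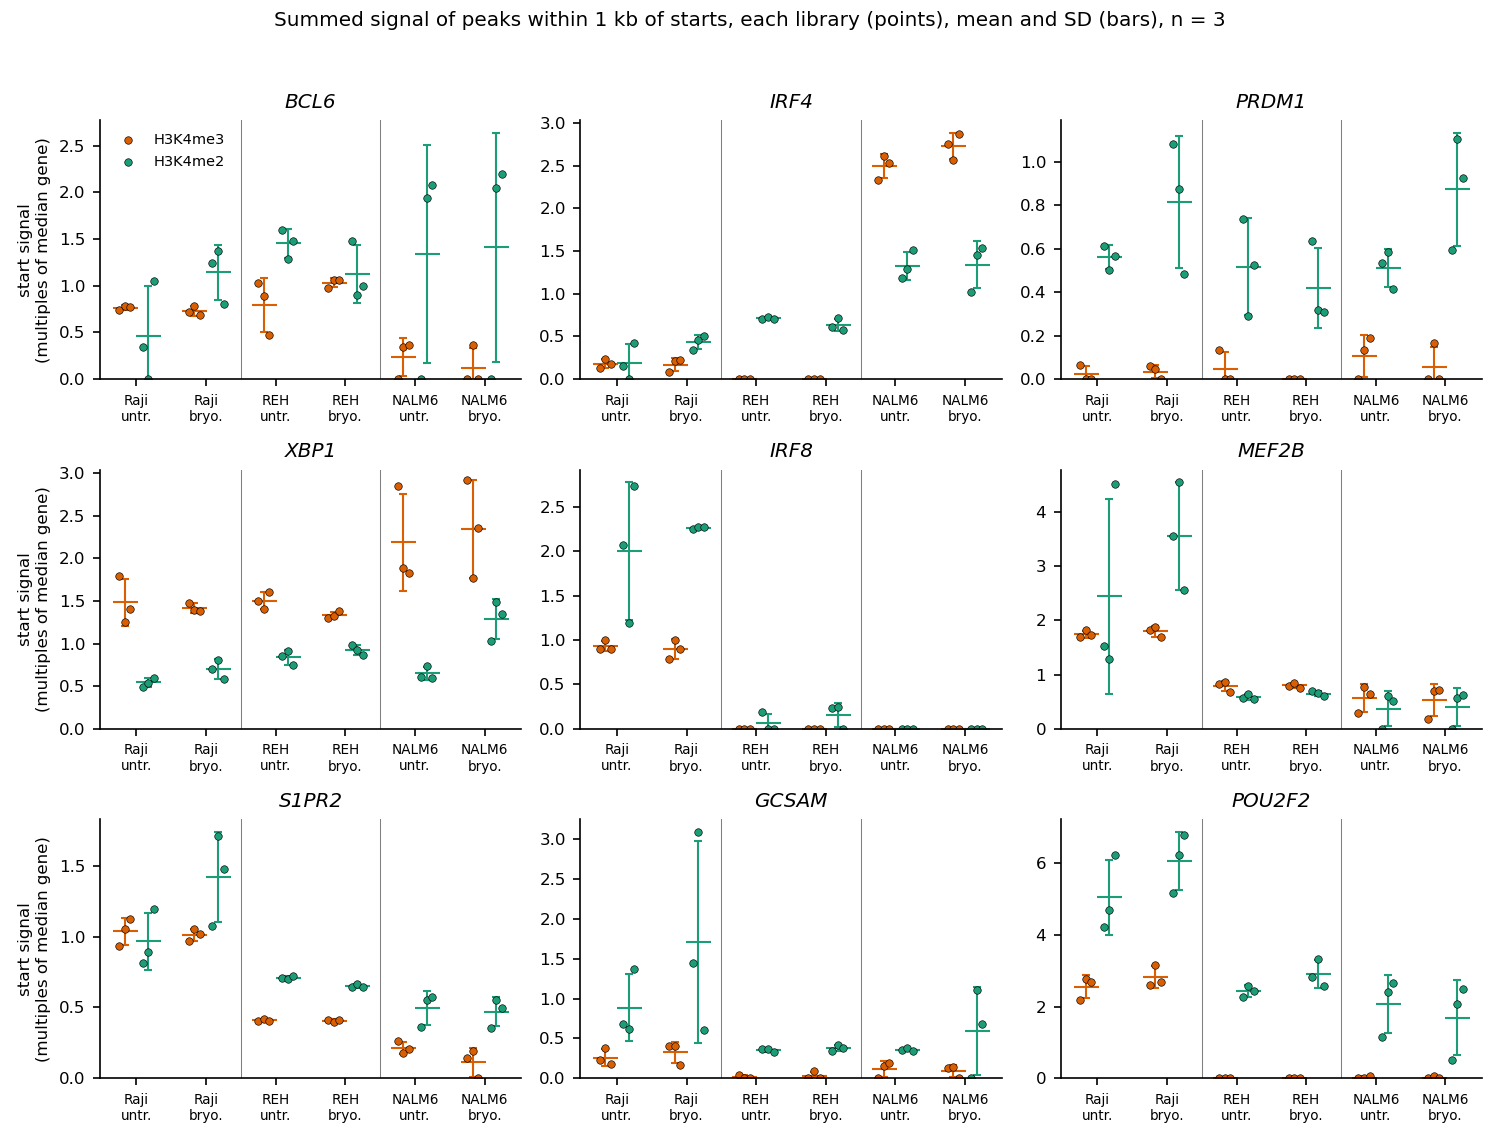
Summed signal of peaks within 1 kb of starts, in multiples of the median gene of the library, for each gene; points are libraries, bars the mean and SD of 3, orange is H3K4me3 and green H3K4me2. IRF4 H3K4me3 is highest in NALM6 (2.34 to 2.87) and at 0 in REH, while IRF8 and POU2F2 are high in Raji and at or near 0 for H3K4me3 elsewhere.

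Over all members tested for H3K4me3 between Raji and REH, which needed a start peak in all 6 untreated libraries, 2 of 4 passed, both higher in Raji (S1PR2 and MEF2B), where 47.2% of 7835 genes passed. Between Raji and NALM6, 3 of 4 passed (S1PR2 and MEF2B higher, IRF4 lower in Raji), against 17.4% of 6136 genes. For H3K4me2, 4 of 6 passed against REH (GCSAM, MEF2B and POU2F2 higher, XBP1 lower in Raji; 39.1% of 8294 genes) and 3 of 5 against NALM6 (GCSAM, S1PR2 and POU2F2 higher; 13.3% of 4504 genes). The untested members are those without a peak in at least 1 library, among them IRF8. The calls depended on the measure. By mean signal per base 0, 1, 2 and 0 members passed in these 4 comparisons, against 19.8%, 7.32%, 24.8% and 4.15% of genes. The 2 against REH for H3K4me2 were PRDM1 and S1PR2, which had not passed by summed signal. Left without 1 library, the 3 H3K4me2 calls against NALM6 became 0 (without NALM6 replicate 2 or Raji replicate 1) or 1 (without NALM6 or Raji replicate 3). Of the genes tested, 8.27% and 4.88%, then 8.13% and 6.01%, passed in these fits. Without replicate 1 of both lines, which removes the NALM6 library of another scaling, 5 of 6 members passed for H3K4me3 against NALM6, where 57.9% of 9537 genes passed: IRF4, S1PR2 and MEF2B in the same direction, BCL6 higher in Raji (log2 difference 1.05, adjusted p = 2.60e-05) and XBP1 lower (-0.57, adjusted p = 0.000887). Without centring on the median gene no member passed against NALM6, nor did any of the other genes tested (19 and 8 at an unadjusted p under 0.05 for H3K4me3 and H3K4me2, limma), and that gene moved by 1.18 (H3K4me3) and 1.21 (H3K4me2) on the log2 scale.

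**Figure D4:**
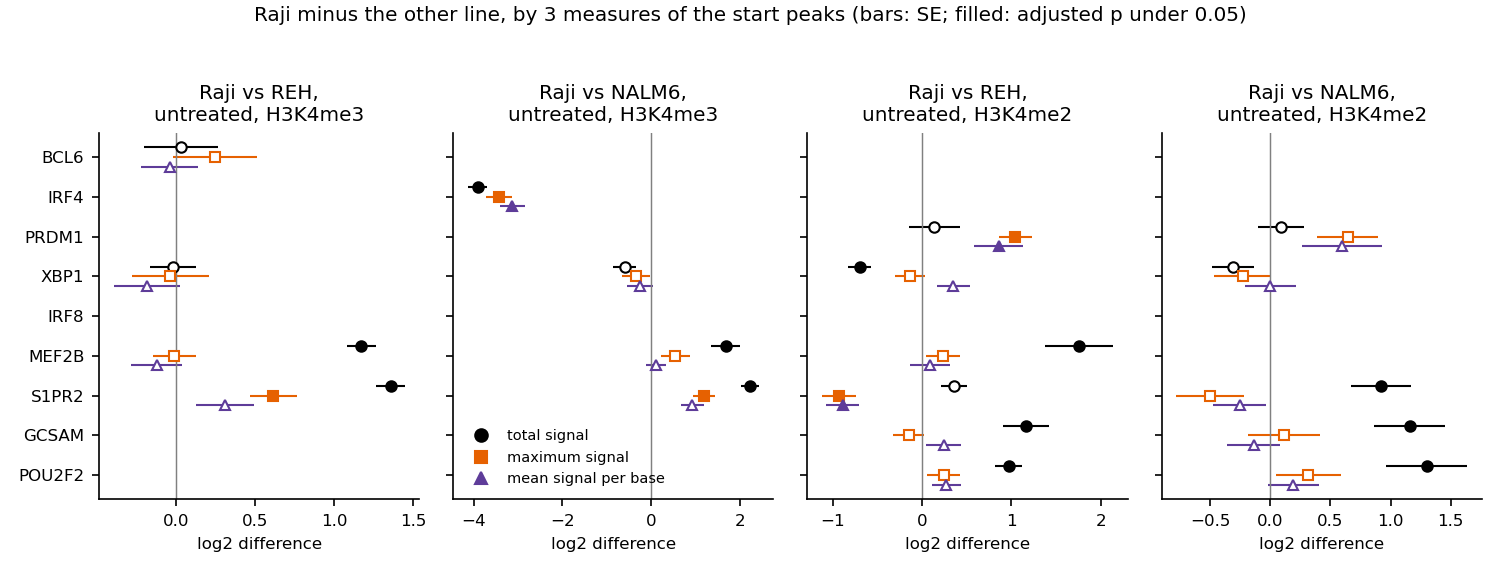
Log2 difference of Raji minus REH or NALM6 in untreated libraries (bars: SE, n = 3 in each group) by summed signal (circles), maximum signal (squares) and mean signal per base (triangles) of the start peaks; filled symbols have an adjusted p under 0.05 (limma), and each panel has its own scale. At IRF4 against NALM6 all 3 symbols lie together, from -3.91 to -3.13, whereas at MEF2B, GCSAM and POU2F2 the circles lie to the right of the other symbols.

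Over the gene body with 3 kb on each side, groups were compared by whether their 3 values overlapped. H3K4me3 was higher in Raji than in REH at 6 members (27.7% of genes) and than in NALM6 at 6 (30.8%), and higher in NALM6 than in Raji at IRF4 and XBP1 (15.3%). H3K4me2 was higher in Raji than in REH at IRF8, MEF2B, S1PR2 and POU2F2 (27.1%) and higher in REH at BCL6, IRF4 and XBP1 (28.6%). Against NALM6 it was higher in Raji at 4 members (28.4%) and lower at IRF4 and XBP1 (11.4%). IRF4 body values for H3K4me2 were 0.129, 0 and 0.353 in Raji, 0.569, 0.594 and 0.586 in REH and 1.52, 1.07 and 1.22 in NALM6. PRDM1, the third plasma cell member, overlapped in both pairs for H3K4me2.

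For H3K27me3 over the body, IRF4 was higher in REH (0.348, 0.34 and 0.406) than in Raji (0, 0.05 and 0), as were 11% of genes. POU2F2 was higher in Raji (0.486, 1.09 and 0.654) than in NALM6 (0.349, 0.439 and 0.475), as were 1.99%, and this ended when the flanks were left out. No member was higher in NALM6 for H3K27me3 over the body (2.06%). Without the Raji library that stands apart, IRF4 had an H3K27me3 start peak in every untreated REH library and in no untreated Raji library left. POU2F2 (0.946, 0.992 and 0.724 in REH) was then higher in REH over the body as well. The share of all genes for this reduced comparison is not given. Of the Raji libraries left, replicate 1 had 819 peaks and 5.12 megareads and replicate 3 had 73265 peaks and 32.4 megareads. Untreated REH had 17621 to 48483 peaks, and the part of depth was not tested.

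With bryostatin, no member passed limma at an adjusted p under 0.05 for either mark in any line. Over all genes H3K4me3 calls numbered 0 of 9894 in Raji, 57 of 8235 in REH (0.692%) and 0 of 4643 in NALM6, with 482, 717 and 5 genes at an unadjusted p under 0.05. H3K4me2 calls numbered 2 of 8848 in Raji (0.0226%), 26 of 9792 in REH (0.266%) and 0 of 4119 in NALM6, with 524, 659 and 38 at an unadjusted p under 0.05. In Raji H3K4me3, where same-numbered libraries deviated together, the replicate block called 14 genes in place of 0, none of them a member.

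**Figure D5:**
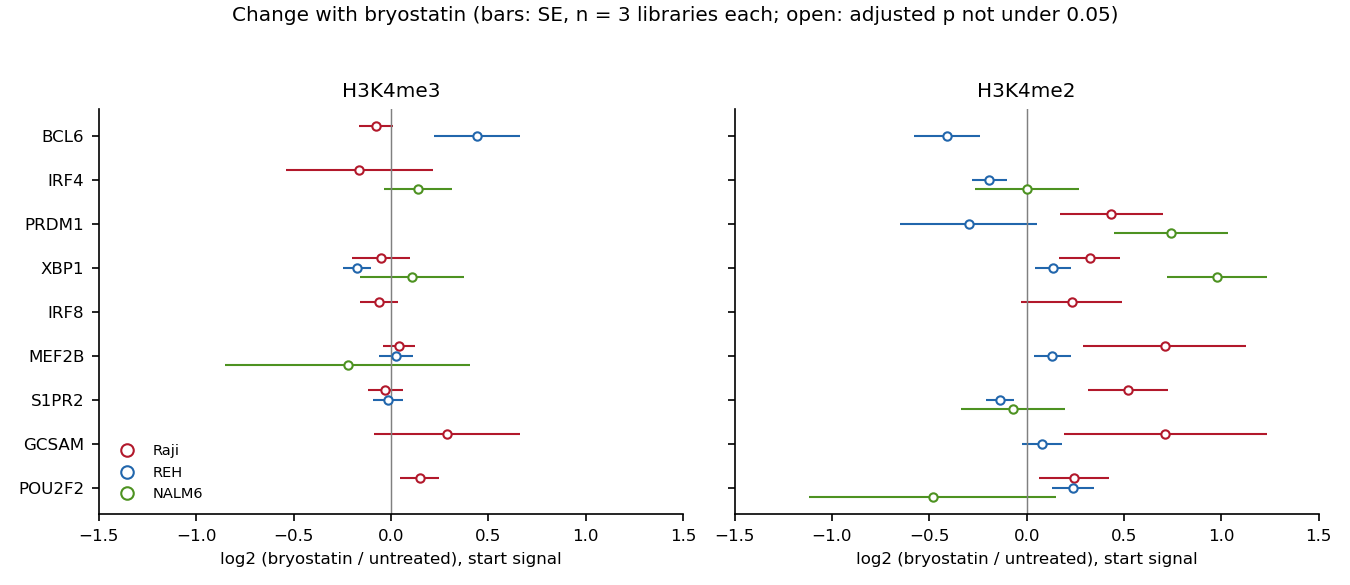
Log2 ratio of bryostatin to untreated start signal for each gene tested, with SE (n = 3 libraries each), in Raji (red), REH (blue) and NALM6 (green); open symbols did not pass an adjusted p of 0.05 (limma). For H3K4me3 most members lie near 0, and for H3K4me2 the highest values are XBP1 and PRDM1 in NALM6, at 0.98 and 0.74.

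Values that differed most were those of H3K4me2. XBP1 in NALM6 went from 0.611, 0.742 and 0.601 untreated to 1.03, 1.49 and 1.35 with bryostatin, without overlap, at a log2 difference of 0.98 ± 0.26 (adjusted p = 0.999, limma). PRDM1 in NALM6 went from 0.534, 0.588 and 0.416 to 0.592, 1.1 and 0.926, at 0.74 ± 0.30 (adjusted p = 0.999, limma). Over the body they were the 2 members higher without overlap in bryostatin NALM6, where 3.54% of genes were, and by maximum signal no member was. IRF4 body values there averaged 1.27 in both groups. At XBP1 the bryostatin peaks also covered more sequence, 7332 ± 5785 bp (SD, n = 3) against 1843 ± 1255 bp, and the part of peak length was not tested. The mean signal per base was lower with bryostatin, at 136 ± 81.9 against 227 ± 162 for XBP1 and 123 ± 71.5 against 161 ± 98.7 for PRDM1 (SD, n = 3), and by that measure the log2 differences were -0.40 and -0.23 (adjusted p = 0.999 for both, limma).

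S1PR2 in Raji went from 0.814, 0.89 and 1.19 to 1.08, 1.71 and 1.47, which overlap, at 0.52 ± 0.21 (adjusted p = 0.733, limma). Over the body IRF4 (0.129, 0 and 0.353 against 0.354, 0.47 and 0.425) and S1PR2 (0.878, 0.772 and 0.991 against 1.3, 1.78 and 1.25) were higher without overlap in bryostatin Raji, where 5.05% of genes were. Read depth moved with these values: untreated Raji H3K4me2 libraries had 6.70 to 13.9 megareads mapped and bryostatin ones 15.6 to 18.8, and the part of depth was not tested. A further H3K4me2 region 9039 to 14018 bp inside IRF4 was called in 2 of 3 bryostatin Raji and 2 of 3 bryostatin NALM6 libraries and in no untreated or REH library. This region was singled out after its libraries were seen, and the share of all genes with such a region was not computed. Where NALM6 depth is known, the bryostatin H3K4me2 libraries had 21.2 to 23.4 megareads. The shallower untreated one had 8.24 and the other lay within the bryostatin range. The part of depth was not tested there either.

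In REH the body values that did not overlap were small shifts. H3K4me3 at XBP1 was lower (1.36, 1.29 and 1.47 untreated against 1.21, 1.22 and 1.25, as at 6.26% of genes), H3K4me2 was lower at S1PR2 (4.25%) and higher at POU2F2 (3.07 against 3.64 on average, 5.11%), and H3K27me3 at IRF4 was lower (0.348, 0.34 and 0.406 against 0.326, 0.278 and 0.296, as at 3.61% of genes). At the IRF4 start H3K27me3 overlapped, with a mean of 0.568 untreated and 0.696 with bryostatin. H3K27me3 at the POU2F2 starts was higher in bryostatin REH without overlap (0.355 to 0.452 untreated, 0.599 to 0.695 with bryostatin). The share of all genes for this was not computed, and the unit rests on 18 genes, POU2F2 among them. Its mean signal per base was in contrast 96.1 ± 36.7 (SD, n = 3) untreated and 70.2 ± 4.88 with bryostatin, and its body values overlapped. No member had H3K4me3 body values without overlap in Raji, where 5.48% of genes were higher and 5.32% lower with bryostatin, or higher ones in REH (5.67%), or lower H3K4me2 in NALM6 (4.5%). At starts, XBP1 H3K4me3 in REH had a log2 difference of -0.17 ± 0.07 (adjusted p = 0.526, limma) and BCL6 H3K4me2 one of -0.41 ± 0.17 (adjusted p = 0.723, limma). The response to bryostatin was then compared between lines in 1 model. No member passed that interaction test, and of all genes 5 of 7788 did (0.0642%), for H3K4me2 between Raji and REH, with 485 at an unadjusted p under 0.05. The other 3 tests called 0, with 283, 58 and 54. The members with the smallest p were S1PR2 (Raji minus REH 0.66 ± 0.23, adjusted p = 0.768, limma) and XBP1 (Raji minus NALM6 -0.62 ± 0.28, adjusted p = 1.00, limma), both for H3K4me2.

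Other genes of both programmes were read from lists of 16 each, named without regard to how they moved here but with earlier results of these data known. Of the germinal centre list, H3K4me3 was in all 6 libraries at 13 genes in Raji, 9 in REH and 6 in NALM6, where over all genes the shares were 49.4%, 41.1% and 23.2%. RGS13, SERPINA9 and the chemokine receptor CXCR5 had it in 5, 6 and 6 Raji libraries and in none of the leukemia lines, while STAP1 had none anywhere. Of 9 tested between Raji and REH, 4 were higher and 2 lower in Raji, with a median log2 difference of 0.15 against -0.02 over all genes, and MYBL1 (1.41), LMO2 (-0.87) and BCL7A (0.79) led.

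Of the plasma cell list, H3K4me3 was in all 6 libraries at 9 genes in Raji, 7 in REH and 1 in NALM6, against the same shares. Of 6 tested between Raji and REH, SEC11C (0.91), of the signal peptidase, was higher and MZB1 (-0.92), an endoplasmic reticulum chaperone, lower in Raji, with a median of -0.00. SDC1, the plasma cell surface marker CD138, had H3K4me3 in 6 of 6 REH, 0 of 6 Raji and 1 of 6 NALM6 libraries. It also had H3K27me3 in all 6 REH and all 6 NALM6 libraries and in 3 of 6 of Raji. ELL2 likewise had H3K4me3 in 6 of 6 REH libraries and in no Raji or NALM6 library. Other genes of this list went the other way. TNFRSF13B and CD27 had H3K4me3 in 6 of 6 Raji libraries and JCHAIN in 5 of 6, with none in the leukemia lines. Between Raji and REH for H3K4me2, 3 of 9 plasma cell genes were higher and 2 lower in Raji, against 3 and 2 of 11 on the germinal centre list. Against NALM6, of the germinal centre list 2 of 9 were higher and 2 lower for H3K4me3 and 2 of 7 higher and 1 lower for H3K4me2, and none of the plasma cell genes tested (1 and 3) passed. With bryostatin 1 gene of both lists passed, MME (CD10) of the germinal centre list, lower in REH for H3K4me3 (-0.34 ± 0.06, adjusted p = 0.0483, limma).

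The genes on other chromosomes whose H3K4me3 start values over the 18 libraries were most like those of each member are given as a description, since the 18 points are 3 lines and share their spread. For IRF4 they were VLDLR (Pearson r = 0.994) and TCL1A (r = 0.974), with 33 genes over 0.9 in all. For IRF8 they were SLC1A1 and MET, with 411 genes over 0.9, and for POU2F2 MLLT3 and MYO1E (both r = 0.995), with 416. BCL6 was most like PAPSS1 (r = 0.989) and TMEM234 (r = 0.985), MEF2B like FLVCR1 and UBE4B (both r = 0.976), and S1PR2 like BCL2L1 and GRHPR (both r = 0.977). GCSAM was most like OAS2 (r = 0.955) and ACSL5 (r = 0.951), and XBP1 like SGTB and NLN (both r = 0.953). PRDM1, with few peaks, had 6 genes over 0.9, led by ZMAT1 (r = 0.943) and SEC14L2 (r = 0.905).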

How the data were processed

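Peaks of 54 Cut&Tag libraries were analysed, and those of 18 IgG libraries were not used here. Per the labels and methods, the authors used Trim Galore for trimming, Bowtie2 with hg38 for alignment and SEACR in its stringent mode on RPKM coverage of each library (versions not given in the sources used here). The deposited files hold, for each peak, the summed and the maximum signal. In 48 libraries this signal is RPKM in 10 bp bins, whose steps give the mapped reads per library; the 6 NALM6 replicate 1 libraries have another scaling that is not stated.

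Peaks were assigned to GENCODE 44 protein-coding genes within 1 kb of any start, or over the gene with 3 kb flanks. The log2 summed signal of genes with a peak in all libraries compared was centred on the median gene and tested with limma 3.58.1 (R 4.3.3; trend, Benjamini-Hochberg over all genes tested, threshold 0.05). On simulated data made from these libraries, log2 changes of 1 were recovered at 92% (H3K4me3) and 72% (H3K4me2) between Raji and REH, 50% and 55% between Raji and NALM6, and, for treatment, 77% and 74% in Raji, 96% and 89% in REH and 23% and 13% in NALM6. The simulation changed only a small set of genes, with noise independent between libraries. In the data 47.2% (H3K4me3) and 39.1% (H3K4me2) of genes passed between Raji and REH, so recovery there may differ. Presence and body values carry no test. Values printed as multiples of the median gene use the genes with a peak in all 18 libraries of the mark (4361 for H3K4me3, 3573 for H3K4me2 and 18 for H3K27me3 at starts, and 4860, 4357 and 45 over bodies), so H3K27me3 values rest on few genes. Same-numbered libraries deviated together (r over 0.1 in every pair) for treatment in Raji H3K4me3 (0.381 to 0.509), NALM6 H3K4me3 (0.600 to 0.671) and NALM6 H3K4me2 (0.380 to 0.509), a hint from the data. In NALM6, replicates 2 and 3 also deviated together across numbers (0.479 and 0.565 for H3K4me3, 0.486 and 0.338 for H3K4me2). There, pairing by number cannot be told apart from replicate 1 differing from the others. Named genes are the 9 members, the 2 genes most like each, and of each list of 16 the 3 with the largest Raji to REH difference in H3K4me3 past the threshold. Genes singled out otherwise (RGS13, SERPINA9, CXCR5, STAP1, MME, SDC1, ELL2, TNFRSF13B, CD27 and JCHAIN) were picked after their values were seen. The results of 1 listed gene and of 1 promoter are not reported here. Members and lists were chosen with earlier results of these data known. Python 3.11.15, pandas 2.3.3, numpy 2.4.6 and matplotlib 3.10.9 were used. Alternatives, some added after seeing the data, are given with the limits.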

Additional observations from a re-analysis of the deposited data

Results flagged for a closer look

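The H3K4me2 signal over the body of S1PR2 moved in opposite directions with bryostatin in Raji and REH. In Raji the mean was higher by 0.562 multiples of the median gene (0.88 untreated, 1.44 with bryostatin), and in REH the difference was -0.0535 (0.578 and 0.524), without overlap of the groups in either line. The difference between the lines over the body was not tested; at the start, the interaction of line and treatment did not pass (adjusted p = 0.768, limma). In Raji the untreated libraries also had fewer mapped reads than the bryostatin ones, and the part of depth was not tested. No group had more than 3 libraries, so single libraries were not screened.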

How the results depend on the processing

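Member differences that passed as reported above gave 176 values under other settings, of which 126 kept the call, 43 lost it and 7 turned. Of all 877 member values recomputed, 819 kept their call or lack of one, 43 lost a call, 5 gained one and 10 turned. Among the 819, 93 changed sign with neither value past the threshold. Those that turned, as log2 differences of Raji minus REH, were BCL6 H3K4me3 without REH replicate 3 (-0.28 to 0.23 over the libraries left out), MEF2B H3K4me3 by maximum (-0.010) and mean signal (-0.12), S1PR2 H3K4me2 by maximum (-0.93) and mean (-0.89), GCSAM H3K4me2 by maximum (-0.15) and XBP1 H3K4me2 by mean (0.35). Against NALM6 they were GCSAM by mean (-0.14) and S1PR2 by maximum (-0.50) and mean (-0.26), both H3K4me2. Summed signal is length times mean signal, so these measures part where peaks differ in length; other causes were not tested.

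Members passing limma numbered 2, 3, 4 and 3 (H3K4me3 in Raji against REH, then against NALM6, then H3K4me2 in the same order). Where these numbers moved by more than 1.5 times, maximum signal gave 1 (H3K4me3, REH), 2 (H3K4me2, REH) and 0 (H3K4me2, NALM6). Of all genes tested 22.6%, 33.6% and 9.21% passed there. Mean signal gave 0, 1, 2 and 0, beside 19.8%, 7.32%, 24.8% and 4.15% of genes. Genes above the median signal alone gave 1, 1, 2 and 1, beside 46.8%, 11.6%, 47.3% and 16.3% of genes. Without centring the numbers were 0 (H3K4me3, NALM6), 2 (H3K4me2, REH) and 0 (H3K4me2, NALM6), beside 0%, 27.7% and 0% of genes. The canonical start alone gave 1 (H3K4me3, REH; 46.2% of genes) and 0 (H3K4me2, NALM6; 8.40%), and the body with flanks 1 (H3K4me2, NALM6; 18.8%). Leaving out replicate 1 of both lines gave 5 (H3K4me3, NALM6), beside 57.9% of genes. Smaller moves were 2 by maximum signal (H3K4me3, NALM6), 2 and 3 at the canonical start (H3K4me3, NALM6, and H3K4me2, REH), and 4, 6 and 4 in the last 3 comparisons with a peak in at least 2 of 3 libraries. In the same order 8.23%, then 16.4% and 35.4%, then 24.5%, 38.0% and 14.6% of genes passed. The 3 H3K4me2 calls against NALM6 ranged from 0 to 4 without 1 library (0 without NALM6 replicate 2 or Raji replicate 1, 1 without NALM6 or Raji replicate 3) and are the least firm of the 4. Genes called numbered 3695 (1110 to 4260 over the other settings), 1069 (0 to 2353), 3241 (1961 to 3919) and 600 (0 to 1135). Without 1 library they numbered 492 to 4048 for H3K4me3 and 220 to 1779 for H3K4me2 against NALM6. Without replicate 1 of both lines, H3K4me3 gave 5523. Against REH, 1704 genes were higher and 1991 lower in Raji for H3K4me3 (225 and 885 without centring) and 1652 and 1589 for H3K4me2 (477 and 1823), with the median gene at -0.18 and -0.28 on the log2 scale without centring. For treatment they ranged from 0 to 79 over settings and from 0 to 84 without 1 library.

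Start peaks present in 1 line only, when each library was given the same number of peaks, gave 4 members (H3K4me3, Raji against NALM6; 1 as reported), 2 (H3K4me2, REH; 0 as reported), 2 (H3K4me2, NALM6; 1 as reported) and 1 (H3K27me3, REH; 0 as reported). With only the peaks above the median maximum they gave 3 (H3K4me3, NALM6), 3 (H3K4me2, REH) and 1 (H3K4me2, bryostatin in Raji). Without 1 library, a choice made after seeing the data, they ranged from 1 to 2 (H3K4me3, NALM6), from 0 to 1 (H3K4me2, REH), from 0 to 1 (H3K27me3, REH) and from 0 to 1 (H3K27me3, bryostatin in NALM6). These counts take both directions together and lack the share over all genes, so they describe the settings and not the members.

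Body values without overlap, with only the peaks above the median maximum, gave 3 (H3K4me3, REH; 6 as reported), 5 (H3K4me3, NALM6; 8 as reported), 3 (H3K4me2, NALM6; 6 as reported) and, for bryostatin H3K4me2, 1 in Raji and 1 in NALM6 (2 each as reported). By maximum signal they gave 2 (H3K4me2, NALM6), 2 (H3K27me3, REH; 1 as reported), and for bryostatin 1 (H3K4me3, Raji; 0 as reported), 0 (H3K4me2, Raji), 1 (H3K4me2, REH; 2 as reported) and 0 (H3K4me2, NALM6). Without flanks they gave 1 (H3K4me2, bryostatin in Raji) and 0 (H3K27me3, NALM6), and with equal numbers of peaks 1 (H3K4me2, bryostatin in Raji). Without 1 library they ranged, for bryostatin H3K4me3, from 0 to 1 in Raji, 1 to 2 in REH and 0 to 2 in NALM6, for H3K4me2 from 2 to 6 in Raji, 2 to 4 in REH and 2 to 4 in NALM6, and for H3K27me3 from 0 to 1 in NALM6. For H3K27me3 between Raji and REH they ranged from 1 to 2, at 2 without Raji replicate 2. Here too the counts take both directions together, and the share over all genes is not given.

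With the replicate block no member call changed. The block called 3588, 656, 3035 and 518 genes between lines in the order above, and for treatment 14, 53 and 0 (H3K4me3 in Raji, REH and NALM6) and 1, 34 and 0 (H3K4me2). Between lines same-numbered libraries did not deviate together (r from -0.217 to 0.200), so there the numbers only name libraries. At 3 libraries a group, presence and body calls rest on single libraries, and NALM6 has only 2 libraries of known depth in each group.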
